A study of Rattus norvegicus with 6 samples.

Results

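The ON bipolar mGluR6 cascade is the set of proteins by which ON bipolar cells of the retina read glutamate from rods and cones. It was examined here as 10 genes chosen by name, Grm6, Trpm1, Nyx, Gpr179, Gnao1, Gng13, Rgs7, Rgs11, Pcp2 and Prkca, whatever the case of the letters in the gene symbol. Each of the 10 matched a single row of the deposited gene table, out of 19623 symbols in 26406 rows. The study covered neural retina of rats at postnatal day 60 in 3 groups of 2 samples. LEsham samples came from wild-type rats of the pigmented Long Evans strain, RCSsham samples from Royal College of Surgeons rats, whose photoreceptors degenerate because of a mutation in the phagocytosis receptor gene Mertk, and both had sham surgery with carrier medium at postnatal day 21. RCShNPCs samples came from Royal College of Surgeons rats that received human neural progenitor cells under the retina at the same age. RNA came from the portion of the retina that carried graft cells and, after sham surgery, from the equivalent portion. The labels do not say whether the 2 samples of a group are separate animals.

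The table has 1 FPKM column and names none of the 6 samples. FPKM is the number of sequenced fragments divided by the transcript length that the software uses and by the mapped total of the run. No level could be assigned to a strain or treatment, so the groups could not be compared, and no gene could be named for a pattern like that of a cascade gene. The values describe rat retinal RNA from 1 library or a pool of libraries, and the comparisons are between genes. Each FPKM came with a deposited lower and upper bound. Read as 2 standard errors of counting, the bounds imply 6124332 fragments for the whole table and 10941 for the 10 genes, 0.179% of the total. Differences among animals or libraries lie outside these bounds.

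In darkness, photoreceptors release glutamate onto the dendrites of ON bipolar cells, where the receptor mGluR6 activates the G protein Go and the cation channel TRPM1 closes. In light, glutamate release falls, RGS proteins speed the shutoff of Go, and TRPM1 opens, so the cell depolarizes. Loss of the receptor, the channel or the scaffolds nyctalopin and GPR179 causes congenital stationary night blindness. ON bipolar cells outlast photoreceptors in many retinal degenerations.

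The 8 cascade genes with an entry in the RefSeq promoter table (build GRCr8) differed in the bases upstream of their start. Below are the 250 bases before the start of 4 genes, read 5′ to 3′ on the gene's strand. They are shown because Trpm1 and Nyx share a short motif, and because Grm6 and Gnao1 differ in CpG content, near the median of all promoters and far above it. Capitals mark the motif TAATCC, or GGATTA where it lies on the other strand, in Trpm1 (chr1:127130436-127130685, plus strand) and Nyx (chrX:11974717-11974966, minus strand). They mark CG dinucleotides in Grm6 (chr10:35668753-35669002, plus strand) and Gnao1 (chr19:11198438-11198687, minus strand).
Trpm1: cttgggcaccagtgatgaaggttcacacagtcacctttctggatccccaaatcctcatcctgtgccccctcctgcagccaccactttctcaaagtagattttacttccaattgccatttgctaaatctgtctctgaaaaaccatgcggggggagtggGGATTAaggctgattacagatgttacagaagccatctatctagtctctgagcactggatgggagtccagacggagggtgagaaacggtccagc
Nyx: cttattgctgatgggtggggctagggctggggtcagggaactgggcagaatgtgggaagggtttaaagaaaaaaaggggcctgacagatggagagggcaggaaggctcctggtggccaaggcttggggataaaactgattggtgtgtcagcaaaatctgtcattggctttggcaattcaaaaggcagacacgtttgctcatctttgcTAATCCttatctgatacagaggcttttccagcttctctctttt
Grm6: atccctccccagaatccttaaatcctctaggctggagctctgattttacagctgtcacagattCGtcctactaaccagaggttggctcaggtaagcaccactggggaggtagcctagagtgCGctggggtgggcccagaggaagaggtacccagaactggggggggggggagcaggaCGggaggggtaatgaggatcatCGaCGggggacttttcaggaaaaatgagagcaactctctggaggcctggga
Gnao1: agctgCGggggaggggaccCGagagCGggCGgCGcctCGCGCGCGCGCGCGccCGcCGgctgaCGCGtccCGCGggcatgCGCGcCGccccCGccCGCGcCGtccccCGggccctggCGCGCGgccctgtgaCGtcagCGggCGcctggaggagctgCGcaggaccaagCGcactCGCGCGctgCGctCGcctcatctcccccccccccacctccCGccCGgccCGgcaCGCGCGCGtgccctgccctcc

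TAATCC is the core recognised by the homeobox factors OTX2 and CRX, which act in photoreceptors and bipolar cells. It was found, on either strand, upstream of 2 of the 8 genes and in 6.34% of 33469 promoters of the same length. It began 43 bases before the start of Nyx, and its reverse complement began 93 bases before the start of Trpm1. The cyclic AMP response element TGACGTCA, a palindrome, was found upstream of Gnao1 alone among the 8 and in 1.59% of all promoters. The E-box CANNTG, also the same on both strands, was in 6 of 8 and in 65.5% of all promoters, and TATAAA, searched on both strands, was in 0 of 8 and in 12.9% of all promoters. Matches of different motifs overlapped in 0 places upstream of the 8 genes. These matches are descriptions of letters and not of bound sites.

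The 8 genes formed 2 sets by CpG content. Gnao1 held 46 CpG dinucleotides in 250 bases, Prkca 36 and Rgs7 35, with 83.6%, 74.8% and 77.2% G and C bases. These 3 genes lay above the 97th percentile of all promoters in CpG count, at 99.7, 97.8 and 97.4, and all 3 are also widely expressed in the brain. Gng13 held 6, Grm6 5, Trpm1 3, Pcp2 2 and Nyx 1, against a median of 5 over all promoters. These genes have narrower known expression, such as Pcp2 in cerebellar Purkinje cells and Gng13 in taste and olfactory cells. Whether CpG content goes with breadth of expression was not tested. No value of the table bears on methylation or binding at these bases.

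**Figure D1:**
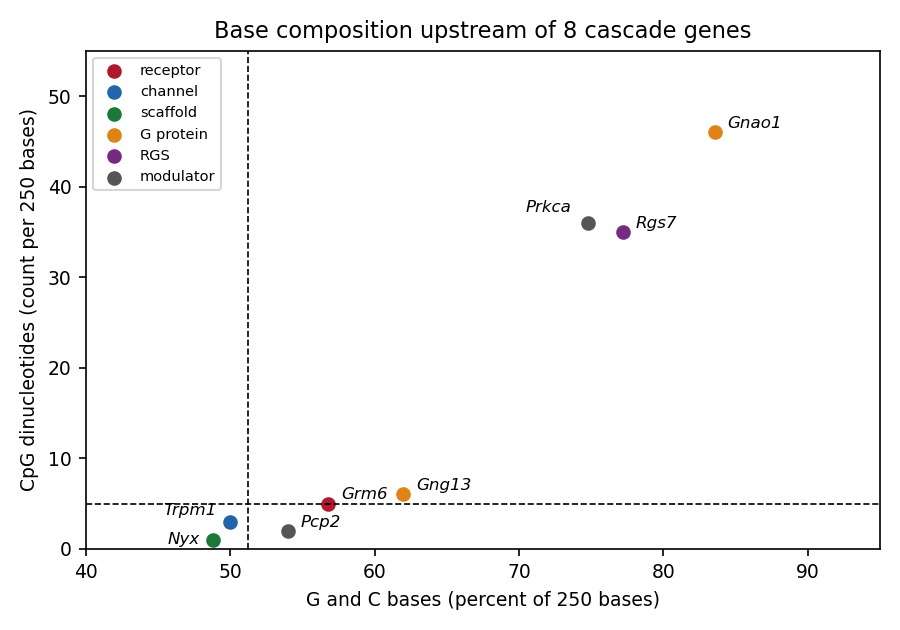
Percent of G and C bases (x axis) against the number of CpG dinucleotides (y axis) in the 250 bases upstream of 8 cascade genes, 1 point per gene, coloured by role; dashed lines are the medians of 33469 promoters, 51.2% and 5. Gnao1, Prkca and Rgs7 lie far above the other 5 genes.

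All 10 cascade genes reached 1 FPKM, against 61.0% of all symbols, and 6 of 10 reached 20 FPKM, against 14.8% of all symbols. The 61.0% is also the share to set beside each later count of listed genes at 1 FPKM. Their median was 38.3 FPKM, beside 3.17 FPKM for all symbols, and each lay between the percentiles 63.5 (Nyx) and 98.5 (Pcp2) of all symbols. Together they held 0.142% of the summed FPKM. In bulk retinal RNA, a low level can mean few cells or little RNA per cell, and these cannot be told apart.

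The receptor was low beside the channel it controls. Grm6, the gene of mGluR6, stood at 15.1 FPKM, and its deposited bounds were 14.0 and 16.2. Its row (ENSRNOG00000000233) spans positions 36116940 to 36133439 of chromosome 10 in rat build rn5. Trpm1, the gene of the channel, stood at 60.8 FPKM (58.8 to 62.9). Its row (ENSRNOG00000015829) spans 126093051 to 126208623 of chromosome 1. The Grm6 level was 0.248 times that of Trpm1, with a 95% counting interval of 0.230 to 0.268, so the channel transcript was 4.03 times as abundant per length.

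Both genes led their families. Of the 8 metabotropic glutamate receptor genes, 7 reached 1 FPKM and Grm6 was highest, at 3.08 times Grm7 (2.57 to 3.69), which stood at 4.90 FPKM. The other 6 lay between 0.350 FPKM (Grm3) and 2.92 FPKM (Grm8). Of the 8 TRPM genes, 4 reached 1 FPKM. Trpm1 was 2.88 times Trpm3 (2.71 to 3.05), which stood at 21.1 FPKM, followed by Trpm2 at 14.5 FPKM and Trpm7 at 13.2 FPKM. Trpm4, Trpm6 and Trpm8 were at 0.508, 0.359 and 0.185 FPKM, and Trpm5 was listed at 0.

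Trpm1 also hosts a microRNA, miR-211, in an intron. The table has a row for its hairpin (Mir211, ENSRNOG00000035648), 106 bases long at 126151169 to 126151274 of chromosome 1, inside the Trpm1 row. That row was listed at 0 while Trpm1 rested on 3597 implied fragments. Of 361 rows with microRNA symbols, 340 were listed at 0 (94.2%), so the 0 is the usual entry for such short rows here and is not read as absence of the microRNA. The 5p mature form, from RefSeq (GRCr8), is shown with its seed, bases 2 to 8, in capitals, because it shares a transcript with the channel.
rno-miR-211-5p: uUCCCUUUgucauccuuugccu

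The 2 scaffold genes differed from each other. Nyx encodes nyctalopin, a leucine-rich repeat protein on the outer face of the dendrite that holds TRPM1 in place. It was the lowest of the 10 genes, at 6.98 FPKM (5.85 to 8.11) from 152 implied fragments, and its row (ENSRNOG00000009646) lies at 10996027 to 11017063 of chromosome X. Gpr179 encodes an orphan receptor that anchors the RGS proteins near mGluR6, and stood at 21.9 FPKM (20.9 to 23.0). Its row (ENSRNOG00000029245) lies at 85064024 to 85079744 of chromosome 10. Gpr179 was 3.14 times Nyx (2.66 to 3.70) and 1.45 times Grm6 (1.33 to 1.58). It was 3.01 times its relative Gpr158 (2.75 to 3.30), which stood at 7.28 FPKM. Lrit3, a further leucine-rich repeat gene needed to place nyctalopin and TRPM1, stood at 27.0 FPKM (24.6 to 29.5). It was 3.87 times Nyx (3.23 to 4.65). Which cells the Lrit3 RNA came from was not tested, so this ratio is not one within ON bipolar cells.

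The G protein genes stood above the receptor by FPKM, but Gng13 had fewer implied fragments, 205 against 784 for Grm6. Gnao1 encodes the alpha subunit of Go and stood at 69.6 FPKM (65.7 to 73.5), 4.61 times Grm6 (4.22 to 5.04). Its row (ENSRNOG00000019482) lies at 11487578 to 11643367 of chromosome 19. Go alpha is abundant in most neurons, so its level is not that of ON bipolar cells alone. Gng13 encodes the gamma subunit and stood at 109 FPKM (93.9 to 124), in a row (ENSRNOG00000039350) at 14901656 to 14903560 of chromosome 10. Gnb3, the beta subunit paired with them in ON bipolar cells and also used by cones, stood at 52.1 FPKM (48.5 to 55.6). The alpha gene was thus 0.637 times the gamma gene (0.550 to 0.739) and 1.34 times the beta gene (1.23 to 1.46).

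Rod transducin exceeded both members of Go in their families. Among 16 alpha subunit genes, Gnao1 ranked 3, after Gnat1 of rods at 6316 FPKM, which was 90.8 times Gnao1, and after Gnas, at 372 FPKM over 2 rows. It was 1.19 times the cone gene Gnat2 (1.10 to 1.30), which stood at 58.4 FPKM. Of the inhibitory alpha genes, Gnai2, Gnai1 and Gnai3 stood at 48.6, 19.3 and 9.37 FPKM, with other alpha genes between them in level. Among 12 gamma subunit genes, Gng13 also ranked 3, after Gngt1 of rods at 6641 FPKM and Gng2 at 187 FPKM. The Gng2 level rests on 46 implied fragments, 0.246 per unit of FPKM. Gng13 was 2.32 times Gngt2 of cones (1.91 to 2.81), which stood at 47.2 FPKM.

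**Figure D2:**
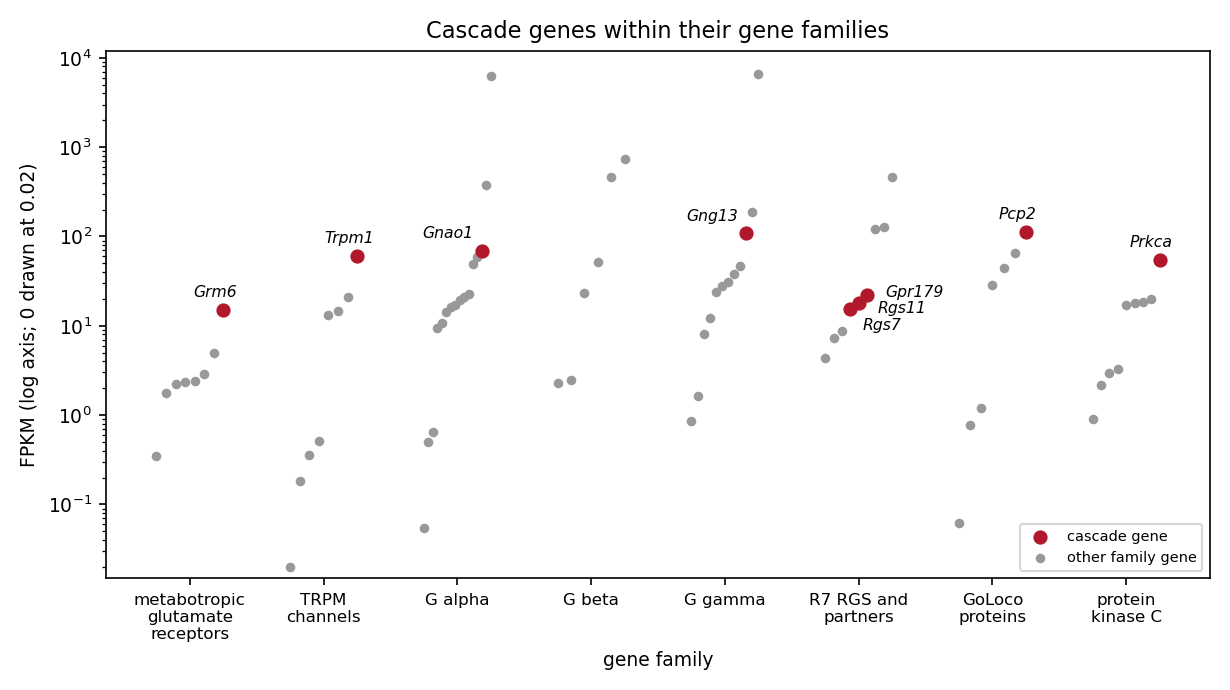
FPKM on a log axis for the measured genes of 8 families, 1 point per gene in rising order within a family; cascade genes are red and named, and a gene listed at 0 is drawn at 0.02. Grm6, Trpm1, Pcp2 and Prkca are the highest points of their families, while Gnao1 and Gng13 lie below the rod genes at 6316 and 6641 FPKM.

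The 2 RGS genes, whose products speed the shutoff of Go and can stand in for one another, were close in level. Rgs11 stood at 18.1 FPKM (16.4 to 19.9) in a row (ENSRNOG00000020459) at 15383438 to 15391694 of chromosome 10. Rgs7 stood at 15.2 FPKM (13.6 to 16.9) in a row (ENSRNOG00000021984) at 97560710 to 97772203 of chromosome 13. Rgs7 was 0.840 times Rgs11 (0.730 to 0.967). With the outer deposited bounds of both genes that range was 0.685 to 1.03, which includes 1. Rgs9, the photoreceptor member of this R7 subfamily, stood at 127 FPKM, 6.98 times Rgs11 (6.32 to 7.72), and Rgs6 at 8.79 FPKM.

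The partners of the RGS proteins spanned a wide range. Gnb5, the beta subunit that R7 proteins need for stability, summed to 469 FPKM over 2 rows that overlap in position, so how reads were divided between them is uncertain. Rgs9bp encodes the membrane anchor R9AP, which holds Rgs9 in rods and Rgs11 in ON bipolar cells, and stood at 120.3 FPKM (112 to 129). It was 6.63 times Rgs11 (5.89 to 7.46). The related anchor gene Rgs7bp stood at 4.40 FPKM (2.82 to 5.98), from 31 implied fragments. Both Gnb5 and Rgs9bp serve photoreceptors as well, so the 2 uses are not separated.

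Pcp2 and Prkca are used as markers of rod bipolar cells, but the part of other cells in their levels was not tested. Pcp2, whose GoLoco motif binds Go alpha, was the highest of the 10 genes at 113 FPKM (101 to 125). Its row (ENSRNOG00000000993) lies at 4334710 to 4336463 of chromosome 12. It was 1.74 times the next GoLoco gene, Gpsm2 (1.55 to 1.95), at 65.1 FPKM, but 0.195 times Gpsm2 by implied fragments, which are not divided by length. Prkca, protein kinase C alpha, stood at 54.7 FPKM (52.3 to 57.1) in a row (ENSRNOG00000003491) at 95919265 to 96311060 of chromosome 10. Of 9 protein kinase C genes, 8 reached 1 FPKM and Prkca was highest, at 2.72 times Prkcb (2.46 to 2.999), which stood at 20.1 FPKM. Pcp2 was 2.06 times Prkca (1.84 to 2.31).

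In the order of FPKM the 10 genes ran Pcp2, Gng13, Gnao1, Trpm1, Prkca, Gpr179, Rgs11, Rgs7, Grm6 and Nyx, over a 16.2-fold range. Of the 9 neighbouring pairs, 2 had a ratio interval that included 1. These were Pcp2 to Gng13, at 1.03 (0.871 to 1.23), and Rgs7 to Grm6, at 1.01 (0.891 to 1.15). The largest steps were from Prkca to Gpr179, at 2.50 (2.34 to 2.66), and from Grm6 to Nyx, at 2.16 (1.82 to 2.57). The genes above the first step comprise the channel, both G protein subunits and both rod bipolar markers. Those below it are the receptor, scaffolds and RGS genes. By implied fragments these 2 sets mix, with Gpr179 and Grm6 ranked 3 and 5, above Pcp2 and Gng13 at 8 and 9.

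**Figure D3:**
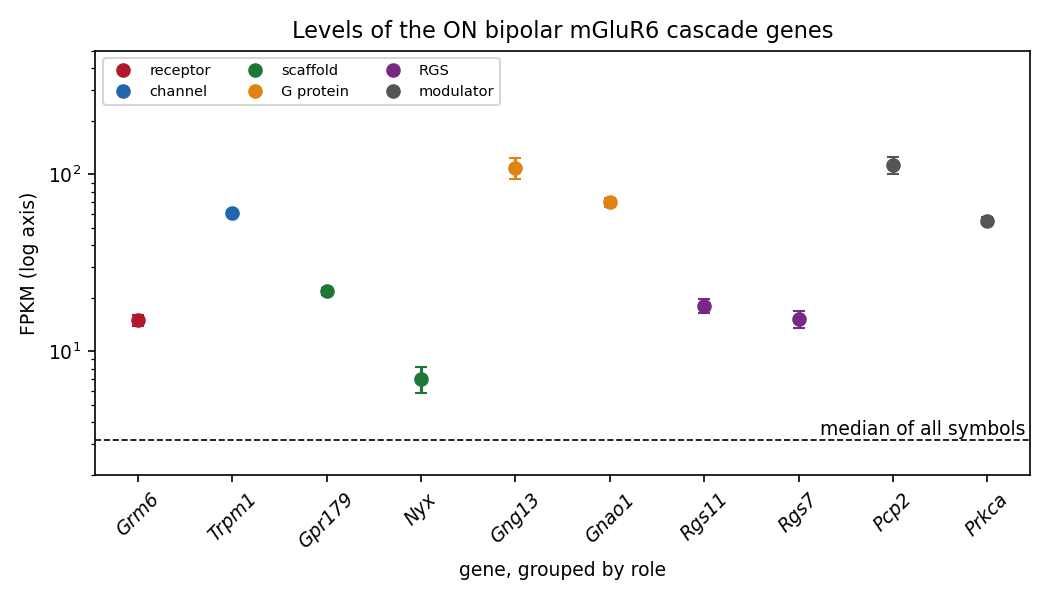
FPKM on a log axis for the 10 cascade genes, grouped and coloured by role, with bars for the deposited lower and upper bounds; the dashed line is the median of all symbols, 3.17 FPKM. Every gene lies above that line, with Nyx nearest to it at 6.98 FPKM.

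The order by fragments was different, because FPKM divides by the length that the software uses. That length was not examined here, and the places of Pcp2 and Gng13 by FPKM depend on it. One unit of FPKM rested on 1.88 implied fragments for Gng13 and 3.05 for Pcp2, against 78.8 for Gpr179, 59.1 for Trpm1 and 52.0 for Grm6. Trpm1 had the most implied fragments, 3597, followed by Prkca with 2079, Gpr179 with 1726 and Gnao1 with 1267. Grm6 had 784, Rgs11 437, Rgs7 351, Pcp2 345, Gng13 205 and Nyx 152. Pcp2 and Gng13, first and second by FPKM, were thus 8 and 9 of 10 by fragments. The upper bound lay 14.0% above the value for Gng13 and 16.2% for Nyx, but 3.33% for Trpm1. For 4 genes, Trpm1, Nyx, Rgs7 and Prkca, the implied number was whole within the rounding of the deposited values. For the other 6 it was not, and the cause was not tested.

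**Figure D4:**
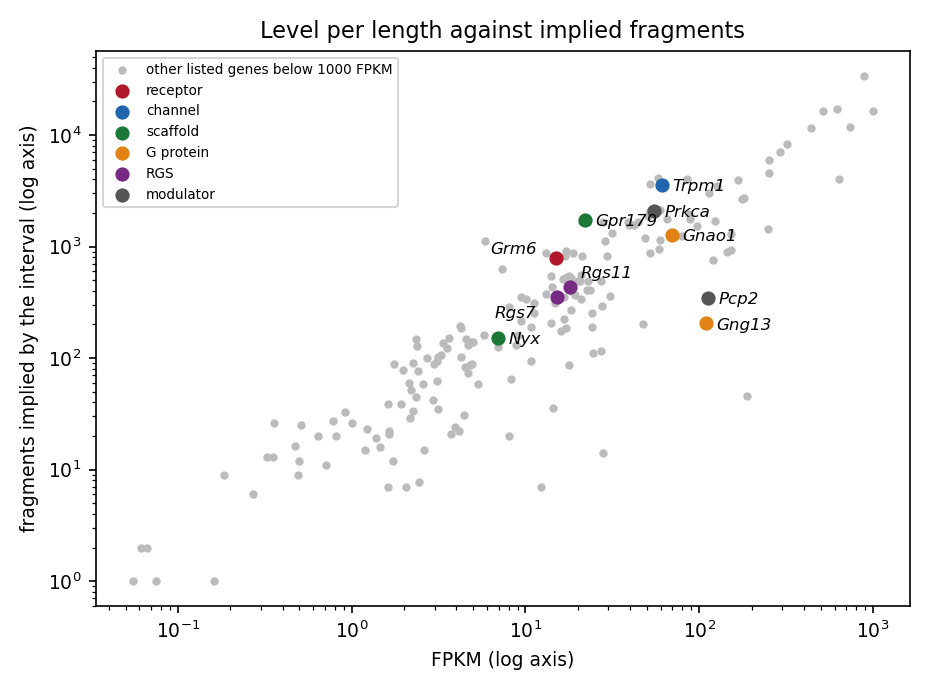
Implied fragments (y axis, log) against FPKM (x axis, log), 1 point per gene, for the 10 cascade genes, named and coloured by role, and for other listed genes below 1000 FPKM in grey. Pcp2 and Gng13 have the highest FPKM of the 10 genes but only 345 and 205 implied fragments.

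Overlapping rows bear on 3 genes, since the sources used here do not say whether counting used strand. The Gng13 row overlapped that of Chtf18, at 2.16 FPKM, and the Pcp2 row overlapped that of Pet100, at 18.6 FPKM. The Trpm1 row overlapped the Mir211 row and an unnamed row, both listed at 0. The other 7 rows overlapped none. Of the 10 genes, 5 lay on chromosome 10 (Grm6, Gpr179, Rgs11, Gng13 and Prkca), which holds 7.46% of all rows, and Gng13 and Rgs11 were 480 kb apart there.

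A further list held 17 genes, beyond the 10, of partners, relatives and scaffolds of the cascade proteins, some of them genes of other cells. All 17 reached 1 FPKM, and their median was 13.2 FPKM. Cabp5, a calcium-binding protein of bipolar cells, was at 9.10 FPKM. Ric8b and Ric8a, chaperones of G protein alpha subunits, were at 59.7 and 13.2 FPKM. Lrfn2, a synaptic adhesion gene, was at 3.09 FPKM. Lrit1 and Lrit2, relatives of Lrit3, were at 84.7 and 22.7 FPKM; photoreceptors express Lrit1. Homer1 and Homer2, which scaffold other metabotropic receptors, were at 4.27 and 1.22 FPKM, and Plcb1 was at 3.14 FPKM.

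On the photoreceptor side of the synapse, all 13 listed genes reached 1 FPKM, and their median was 39.5 FPKM. Elfn1, the rod adhesion protein that binds mGluR6 across the cleft, stood at 17.0 FPKM (15.8 to 18.1), 1.12 times Grm6 (1.02 to 1.24). Egflam (pikachurin), which links GPR179 to dystroglycan, was at 38.7 FPKM, and Dag1 (dystroglycan) at 17.4 FPKM. The highest was Slc17a7, the vesicular glutamate transporter of the terminal, at 439 FPKM. The calcium channel genes Cacna1f and Cacna2d4 were at 57.7 and 51.9 FPKM, and their calcium sensor Cabp4 at 176 FPKM. Mutations of Cacna1f, Cacna2d4 and Cabp4 also impair signalling to bipolar cells, from the terminal.

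The label of an ON bipolar cascade was set beside genes listed as ON bipolar markers that are not cascade genes. All 10 reached 1 FPKM, and their median was 10.1 FPKM, from Bhlhe23 at 2.59 FPKM, with 15 implied fragments, to Isl1 at 27.5 FPKM. Bhlhe23 and Isl1 are transcription factors of ON bipolar cells, and Isl1 is also found in ganglion and amacrine cells. Sebox, a homeobox gene, was at 24.5 FPKM. With the 8 cascade genes on the same list, 18 in all, the median was 18.2 FPKM. All 10 OFF bipolar genes also reached 1 FPKM, and their median was 4.52 FPKM. The highest was Nnat, at 159.7 FPKM summed over 2 rows, with computed bounds of 0 and 328, above every ON bipolar gene. Next came the kainate receptor gene Grik1 at 16.5 FPKM, while Irx6 was at 4.97 and Vsx1 at 4.57 FPKM. These lists were chosen by hand, and no test of their difference was made. Whether each listed gene is limited to its class of bipolar cell was not tested, so the medians are not clean ON and OFF levels.

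Markers of other retinal cells were measured in the same RNA, and some of these cells express some of the 10 genes. All 12 amacrine and all 9 ganglion cell markers reached 1 FPKM, against 61.0% of all symbols. Their medians were 19.6 and 18.9 FPKM, and such neurons are known to hold Gnao1 and Rgs7. The pigment cell list bears on Trpm1, which melanocytes also express. Of its 12 genes, 8 reached 1 FPKM, beside the same 61.0% of all symbols. The median was 2.84 FPKM, and the values ranged from Oca2 at 0.0664 FPKM to Ttr at 152 FPKM. Rpe65 was at 20.7 FPKM, Tyrp1 at 14.2, Dct at 14.0, Pmel at 4.94, Mlana at 1.74 and Tyr at 0.471 FPKM. Ttr lay above Trpm1, and the other pigment genes named here lay below it. The part of pigment cells in the Trpm1 level was not tested. Microglia and vascular markers had medians of 1.50 and 3.04 FPKM, with 5 of 8 and 6 of 6 at 1 FPKM or more.

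**Figure D5:**
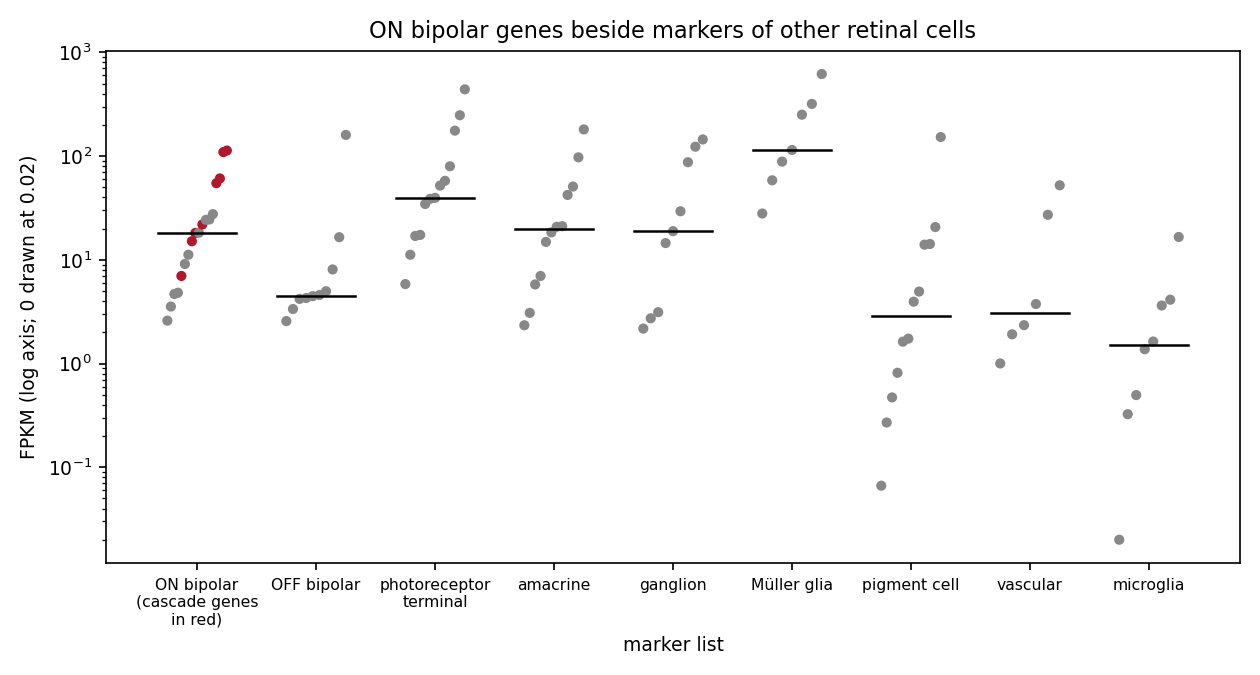
FPKM on a log axis for genes of 9 marker lists, 1 point per gene in rising order, with black lines at list medians; cascade genes on the ON bipolar list are red and a gene listed at 0 is drawn at 0.02. The ON bipolar median is 18.2 FPKM with the cascade genes and 10.1 FPKM without them, and the OFF bipolar median is 4.52 FPKM.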

How the data were processed

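Neural retina RNA of 6 rat samples was sequenced, and 1 gene table of the series was analysed. The authors deposited FPKM values with a lower and an upper bound per Ensembl gene, in the Cufflinks gene format per the file headers. The submitters' processing notes name Cufflinks 2.0.8 and build rn5. The aligner, the annotation, the use of strand and the level of confidence are not given in the sources used. The table names no sample, so the planned limma comparison of groups was not run.

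Values were computed in Python 3.11.15 (pandas 2.3.3, numpy 2.4.6, matplotlib 3.10.9). Rows of a shared symbol were summed ignoring case, with intervals from the root of summed squares. Status was OK for all 10 genes. Implied fragments were taken as the square of FPKM over its standard error, the upper half-width divided by 2. Intervals of ratios used 1.96 standard errors on the log scale. Row starts were raised by 1: among 15649 symbols, the RefSeq gene length equalled end minus start for 1184 and that plus 1 for 255. Depth per sample is unknown.

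The 10 genes and all lists were chosen with earlier results of these data known. By rule, all 10 are named, then family and partner genes bearing on them and otherwise the 2 highest of a list, except lists given by medians alone and items not reported here. The ratios beyond the 5 planned and the neighbouring pairs, the motifs and the other genes named were chosen after values were seen. Alternatives covered row handling, scale, minimum level and reading of the bounds.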

Additional observations from a re-analysis of the deposited data

How the results depend on the processing

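Keeping the highest row per symbol, matching exact case or using rows with status OK changed no level of the 10 genes, no ratio and no count, since each gene has 1 row with status OK. The count of 10 genes at 1 FPKM or more was 9 at a minimum of 10 FPKM and 6 at a minimum of 20 FPKM. The median of 38.3 FPKM became 112 on the scale of TPM, where the sum over all rows is fixed, which multiplies each value by 2.92 and leaves ratios as they are, and 610.1 as implied fragments. With implied fragments, which are not divided by length, 2 of the 5 planned ratios turned: Gnao1 to Gng13 from 0.637 to 6.18, and Pcp2 to Prkca from 2.06 to 0.166. Among the other ratios given, Pcp2 to Gpsm2 turned from 1.74 to 0.195, and Rgs7 to Grm6, whose interval included 1, went from 1.01 to 0.448. Gng13 to Gngt2 fell from 2.32 to 1.00, Gnao1 to Grm6 from 4.61 to 1.62 and Rgs9bp to Rgs11 from 6.63 to 1.74. Further ratios given also changed in size. Gpr179 to Nyx moved from 3.14 to 11.4 and Grm6 to Trpm1 from 0.248 to 0.218, while Rgs7 to Rgs11 was 0.804. The neighbouring pairs whose interval included 1 numbered 2, against 1 of the pairs in the order of fragments and 3 with the outer deposited bounds. Levels per coding length were not run because no protein table was used here. No paired analysis was possible because no library has a column of its own, and leaving out a replicate was not run for the same reason. Depth limits Nyx and Gng13 most among the 10 genes, with 152 and 205 implied fragments.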
